A study of Mus musculus with 6 samples.

Results

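The cardiac transcription factors described here are 10 genes, *Nkx2-5*, *Gata4*, *Gata5*, *Gata6*, *Tbx20*, *Tbx1*, *Hand1*, *Hand2*, *Mef2c* and *Irx4*. They were chosen by name from a count table of 55401 genes, and each symbol matched 1 Ensembl identifier. The table holds poly(A) RNA-seq of whole mouse embryos at E10.5, midgestation, from 2 genotypes on a C57BL/6J background with 3 libraries each. WT embryos carry the unmodified *Igf2* locus. Their littermates, named 5C, carry a tandem array with 5 copies of the microRNA gene *Mir483* inside *Igf2*, made in embryonic stem cells and passed on by chimeric males. Per the study's methods each library pooled 2 male embryos, and 5C embryos arrest in development soon after this stage. In RNA of whole embryos, fewer heart cells and less RNA per heart cell cannot be told apart.

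These proteins form the core of the gene network that builds the heart. NKX2-5, the GATA factors, TBX20, HAND proteins and MEF2C bind DNA near genes for contractile proteins and near each other's genes, and several of them bind one another. Loss of *Nkx2-5*, *Gata4*, *Tbx20*, *Hand1*, *Hand2* or *Mef2c* in mice stops heart development around midgestation. Most of them also act outside the heart. *Gata4* and *Gata6* are expressed in gut and yolk sac endoderm, *Hand1* in trophoblast and extraembryonic mesoderm, *Hand2* in limb buds, pharyngeal arches and sympathetic ganglia, *Tbx1* in the pharynx, and *Mef2c* in skeletal muscle, endothelium and neurons.

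The mature microRNAs of *Mir483* are shown because an excess of them is what separates the genotypes. A microRNA pairs with a messenger mainly through its seed, bases 2 to 8, set here in capitals. Both sequences are from RefSeq (GRCm38.p6) and lie on the minus strand of chromosome 7, at chr7:142654932-142654952 for the 3p strand and chr7:142654968-142654989 for the 5p strand.
mmu-miR-483-3p: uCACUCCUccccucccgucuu
mmu-miR-483-5p: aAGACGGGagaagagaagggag
A match was counted where the 3′ UTR of the longest annotated coding transcript held AGGAGTG or GGAGTGA for miR-483-3p, or CCCGTCT or CCGTCTA for miR-483-5p, on the transcribed strand (each pair overlaps where a site has both). Of the 10 cardiac factors, 1 had a match to miR-483-3p and 0 had a match to miR-483-5p. Among 13903 tested genes with a 3′ UTR, 18.5% had a match to miR-483-3p and 4.7% had a match to miR-483-5p. The 3′ UTRs of the 10 factors had a median of 1084 bases, against 1268 bases over these genes. The single match lay in *Tbx1*, at bases 384 to 390 of a 3′ UTR of 1014 bases, and pairs with bases 2 to 7 of the microRNA with an A opposite base 1. It is in the last of 7 exons, at chr16:18581603-18581609 (GRCm38, minus strand), and is shown with 9 bases on each side and the matched bases in capitals.
*Tbx1* site: tgtgggtgtGGAGTGAgggtctccc
Of the 3 coding *Tbx1* transcripts with an annotated 3′ UTR, 1 held this match.

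Library totals ranged from 6357343 to 19151368 counts, and 3 counts corresponded to between 0.157 and 0.479 CPM (counts relative to the library total, after TMM scaling, a trimmed mean of log ratios between libraries). These floors rest on counts alone and cover no more than counting error. Intervals given below are from the fit over libraries, so they include the spread between pools. *Mir483* itself, the check on the genotype labels, measured 0.577, 0.429 and 0.319 CPM in the WT libraries and 5.15, 4.35 and 2.56 CPM in the 5C libraries, so all 6 libraries matched their labels (log2 fold change 3.05, SE 0.36, adjusted p 0.169, edgeR). Poly(A) RNA-seq reads the long host transcripts here and does not measure the mature microRNAs. Some libraries stood apart. The summed level of 4 Y-linked genes was 4.12 CPM in WT replicate 2 and 0.0854 CPM in 5C replicate 2, against 130 to 212 CPM in the others, although the pools were described as male. The summed level of 12 yolk sac endoderm markers was 6292 CPM in WT replicate 1 and 1252 CPM in 5C replicate 3, against 157 to 476 CPM in the others. Heart muscle was present in every library, with 16 of 16 cardiomyocyte markers detected and sums between 481 and 751 CPM.

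All 10 cardiac factors passed the filter on low counts and were tested among 16784 genes. None passed an adjusted p under 0.05 with a change over 1.5-fold, in edgeR's quasi-likelihood test with Benjamini-Hochberg adjustment over all genes, and 0% of all genes tested passed. At the same thresholds the study itself reported differentially expressed genes in 5C embryos of this stage, most of them lower. The reason for this difference was not tested. The adjusted p-values of the 10 lay between 0.781 and 0.990. At an unadjusted p under 0.05 there were 2 of 10, *Tbx20* and *Hand1*, both lower in 5C, against 3.47% of all genes lower, 2.55% higher and 6.02% in either direction. The same 2 passed with limma-voom and with both other edgeR forms, and *Tbx20* was the 1 that passed with DESeq2. It was also the 1 that passed with GC-content offsets, which left *Hand1* at -0.39 with an unadjusted p of 0.0713 and put the median of the 10 factors at -0.09. The log2 fold changes of 16770 genes had a Spearman correlation of -0.312 with transcript GC content, as a description across genes, and the 10 factors had a median GC content of 57.2%, against 49.4% over all genes tested. *Gata6* was the 1 that passed without both libraries low in Y-linked transcripts, and *Tbx20* without both libraries high in yolk sac markers. Under library-size scaling 445 of 1050 genes at an unadjusted p under 0.05 were lower, against 583 of 1011 under TMM, and the 10 factors kept the same 2. Of the 10 log2 fold changes 7 were below 0, against 50.7% of all genes. Their median was -0.16, against -0.00 over all genes, and they ranged from -0.47 to 0.10. The values of the 2 genotypes did not overlap for 1 factor, *Tbx20*, against 5.10% of all genes with lower and 6.26% with higher values in 5C. The other 9 overlapped.

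**Figure D1:**
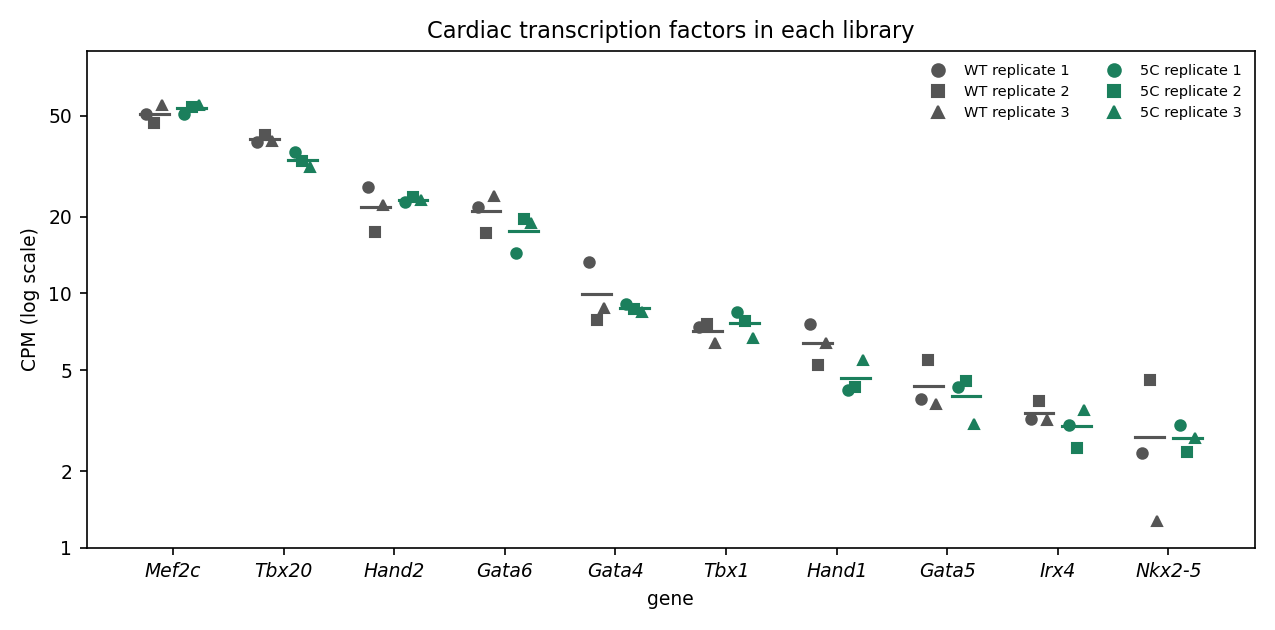
CPM (log scale) of the 10 cardiac transcription factors in each library, ordered by mean level. Points are single libraries (pools of embryos) and bars are genotype means. *Tbx20* is the gene whose WT and 5C points do not overlap, and *Nkx2-5* has the widest WT spread.

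Levels per exon length (RPKM, CPM per kilobase of merged exons) put *Hand2* first. Averaged over the 6 libraries it measured 9.66 ± 1.24 RPKM (SD, n = 6), from 7.41 to 11.2. On this length its values did not overlap those of the next gene. *Mef2c* (3.31 ± 0.210), *Tbx20* (3.08 ± 0.343), *Gata6* (2.98 ± 0.532), *Hand1* (2.77 ± 0.654), *Gata4* (2.40 ± 0.506) and *Tbx1* (2.09 ± 0.211 RPKM, SD, n = 6) followed. *Nkx2-5* (1.58 ± 0.625), *Gata5* (1.27 ± 0.255) and *Irx4* (1.23 ± 0.169 RPKM, SD, n = 6) were lowest. Below *Hand2* each gene overlapped its neighbour in the order, so their places are not separated by these libraries. With the longest coding transcript as the length, *Mef2c* was at 8.30 RPKM and *Gata6* at 5.99 RPKM, *Hand2* stayed at 9.66 RPKM, and 5 genes changed place. The *Mef2c* mean then lay inside the *Hand2* range of 7.41 to 11.2 RPKM. The gap below *Hand2* thus depended on the length used.

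The T-box gene *Tbx20* (ENSMUSG00000031965, chromosome 9, 24718138 to 24774303, minus strand) encodes a factor of the myocardium and endocardium needed for chamber growth. It measured 39.5, 42.0 and 39.7 CPM in the WT libraries, and 35.9, 33.3 and 31.4 CPM in the 5C libraries. Each 5C library lay below each WT library, and the lowest WT value was close to the highest 5C value. Mean levels were 40.4 ± 1.39 and 33.5 ± 2.25 CPM (SD, n = 3 each), which is a ratio of 0.830. On the log2 scale this was -0.27 (SE 0.08), with a 95% interval from -0.46 to -0.08. In edgeR the p was 0.00987 before and 0.781 after adjustment, and the gene ranked 142 by p among all genes tested. Under 19 alternatives its log2 fold change went from -0.32 to -0.22, with an unadjusted p under 0.05 in 18. Without both libraries low in Y-linked transcripts it was -0.23 with an unadjusted p of 0.0746 (edgeR), and without both libraries high in yolk sac markers it was -0.24 with an unadjusted p of 0.0491. *Tbx20* had 249 to 752 counts per library and *Mef2c* 345 to 964, the most of the 10. Its paralog *Tbx1* (ENSMUSG00000009097, chromosome 16, 18580979 to 18590671), a gene of the pharynx and outflow tract, measured 7.35, 7.56 and 6.38 CPM in the WT libraries, and 8.42, 7.77 and 6.69 CPM in the 5C libraries. The genotypes overlapped. The log2 fold change of *Tbx1*, the factor with the seed match, was 0.10, with a 95% interval from -0.25 to 0.44.

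The bHLH genes *Hand1* and *Hand2* mark the left and the right ventricle, respectively, among other sites. *Hand1* (ENSMUSG00000037335, chromosome 11, 57828705 to 57832818, minus strand) stood at 7.61, 5.24 and 6.38 CPM in the WT libraries, and 4.18, 4.27 and 5.48 CPM in the 5C libraries. The highest 5C library lay above the lowest WT library, so the genotypes overlapped, and within each genotype the highest value was in the library with the most yolk sac endoderm markers. The means were 6.41 ± 1.19 and 4.64 ± 0.727 CPM (SD, n = 3 each). Its log2 fold change of -0.47 was the furthest from 0 of the 10, with an SE of 0.20 and a 95% interval from -0.92 to -0.03. In edgeR the p was 0.0393 before and 0.781 after adjustment, and under 19 alternatives it was below 0.05 in 10. Without WT replicate 1 it was -0.30 with an unadjusted p of 0.183. Without WT replicate 3, 5C replicate 1 or 5C replicate 2 the log2 fold change was -0.49, -0.40 and -0.42. The unadjusted p was then 0.0637, 0.123 and 0.114 (edgeR). Passing an unadjusted p under 0.05 thus depended on 4 of the 6 libraries, while the log2 fold change moved most without WT replicate 1. Trophoblast markers, where *Hand1* is also expressed, summed to between 2.39 and 5.84 CPM in WT and between 1.28 and 8.04 CPM in 5C over 9 listed genes, of which 2 passed the count filter and 1 had 0 counts in every library. The part of these other tissues in the *Hand1* values was not tested.

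*Hand2* (ENSMUSG00000038193, chromosome 8, 57320983 to 57324633, plus strand) measured 26.2, 17.4 and 22.3 CPM in the WT libraries, and 22.8, 24.0 and 23.4 CPM in the 5C libraries. All 5C values lay inside the WT range. Its log2 fold change was 0.08 with a 95% interval from -0.24 to 0.40. Exons of the non-coding gene *Hand2os1* on the opposite strand cover 461 bases, or 19.6%, of the *Hand2* exons, and which strand setting the counting used is not given in the sources used here. *Hand2os1* measured 23.9, 23.6 and 25.7 CPM in the WT libraries, and 19.1, 22.7 and 20.7 CPM in the 5C libraries. Its values did not overlap between genotypes, and the log2 fold change was -0.23 (edgeR p 0.0525 before and 0.781 after adjustment). Reads of *Hand2* and *Hand2os1* in the shared bases may be miscounted if the counting ignored strand, and the pair differed in the sign of its log2 fold change.

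The GATA zinc finger genes activate genes of the myocardium and of endoderm. *Gata4* (ENSMUSG00000021944, chromosome 14, 63198922 to 63271692, minus strand) stood at 13.3, 7.90 and 8.77 CPM in the WT libraries, and 9.09, 8.71 and 8.47 CPM in the 5C libraries. WT replicate 1 stood above the other 5 libraries, which lay close together across genotypes. The log2 fold change was -0.21 (95% interval -0.66 to 0.23), and without WT replicate 1 it was 0.08. WT replicate 1 was also the library with 6292 CPM of yolk sac endoderm markers, and the coefficient of variation of *Gata4* was 29.1% in WT and 3.56% in 5C. Within 5C the order was the other way. Replicate 3 had the most yolk sac markers, at 1252 CPM, and the lowest *Gata4*, at 8.47 CPM. The 12 yolk sac markers were all below 0 in log2 fold change, with a median of -2.05. At an unadjusted p under 0.05 there were 2, against 3.47% of all genes lower. The part of yolk sac tissue in the *Gata4* values was not tested. *Gata6* (ENSMUSG00000005836, chromosome 18, 11052064 to 11085635, plus strand) measured 21.9, 17.3 and 24.2 CPM in the WT libraries, and 14.4, 19.6 and 18.9 CPM in the 5C libraries. The genotypes overlapped through WT replicate 2. Its log2 fold change was -0.26 (95% interval -0.62 to 0.09, unadjusted p 0.126, edgeR), and without WT replicate 2 it was -0.39 with an unadjusted p of 0.0301. Without both libraries low in Y-linked transcripts it was -0.47 with an unadjusted p of 0.0304. The non-coding *1010001N08Rik*, which starts 503 bases from *Gata6* on the opposite strand, measured 5.09, 5.32 and 6.54 CPM in the WT libraries, and 4.48, 3.76 and 4.56 CPM in the 5C libraries. The log2 fold change of *1010001N08Rik* was -0.38 (unadjusted p 0.0611, edgeR), and its values did not overlap between genotypes. The pair shares 93 exon bases on opposite strands, 1.4% of the *Gata6* exons, where reads may be miscounted if the counting ignored strand. *Gata5* (ENSMUSG00000015627, chromosome 2, 180325133 to 180334699, minus strand), which is active in endocardium, measured 3.83, 5.50 and 3.67 CPM in the WT libraries, and 4.30, 4.52 and 3.06 CPM in the 5C libraries. Its log2 fold change was -0.14 (95% interval -0.66 to 0.38). The antisense *Gata5os* had at most 2 counts in a library.

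The homeodomain gene *Nkx2-5* (ENSMUSG00000015579, chromosome 17, 26838664 to 26845009, minus strand) is an early marker of heart muscle precursors. It measured 2.36, 4.55 and 1.28 CPM in the WT libraries, and 3.03, 2.39 and 2.71 CPM in the 5C libraries. All 5C values lay between the lowest and the highest WT value, which came from 8 and 53 counts. Mean levels of 2.73 ± 1.67 and 2.71 ± 0.320 CPM (SD, n = 3 for WT and for 5C) gave a log2 fold change of -0.06, and its 95% interval, from -0.86 to 0.74, was the widest of the 10. It became 0.46 without WT replicate 2 and -0.32 without WT replicate 3, so these data do not settle its direction. WT replicate 2, the highest in *Nkx2-5*, was also the highest in cardiomyocyte markers, at 751 CPM against 531 and 590 CPM in WT replicates 1 and 3. The other libraries did not keep this order. WT replicate 3 was lowest in *Nkx2-5* but not in the markers. Among the 5C libraries replicate 1 was highest in *Nkx2-5*, with 500 CPM of markers against 550 CPM in replicate 3. *Irx4* (ENSMUSG00000021604, chromosome 13, 73260479 to 73269608, plus strand), whose product keeps ventricular identity, measured 3.20, 3.78 and 3.19 CPM in the WT libraries, and 3.03, 2.48 and 3.49 CPM in the 5C libraries. The genotypes overlapped, and the log2 fold change was -0.17 (95% interval -0.63 to 0.29). The MADS-box gene *Mef2c* (ENSMUSG00000005583, chromosome 13, 83504034 to 83667080, plus strand), which switches on muscle genes and is needed for the right ventricle, measured 50.6, 46.8 and 55.0 CPM in the WT libraries, and 50.8, 54.1 and 55.2 CPM in the 5C libraries. Its log2 fold change was 0.07, and its 95% interval, from -0.11 to 0.26, was the narrowest of the 10.

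**Figure D2:**
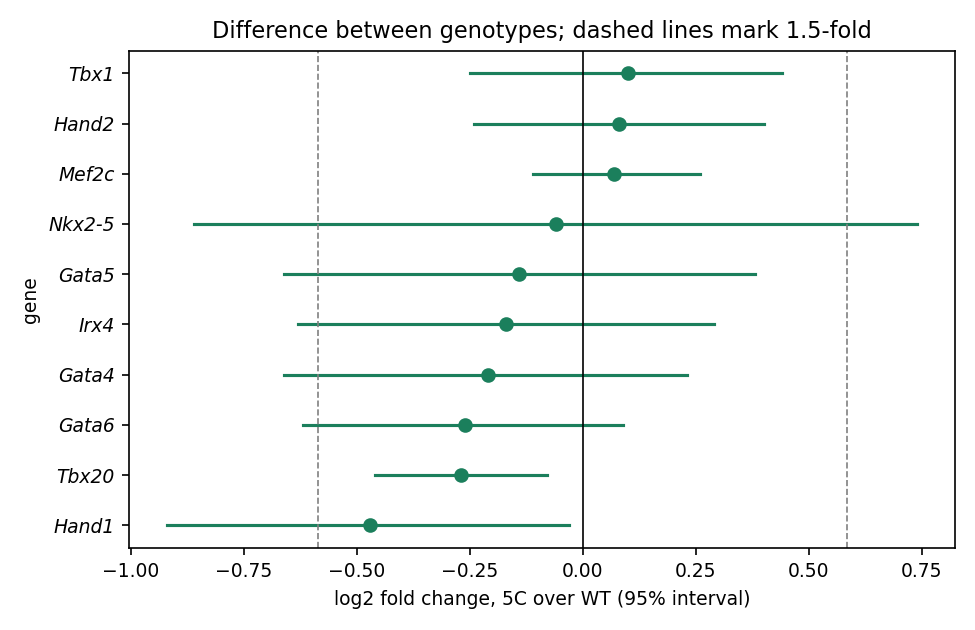
Log2 fold change of 5C over WT (x axis) for each cardiac transcription factor, with its 95% interval from edgeR. The intervals of *Tbx20* and *Hand1* do not reach 0 before adjustment, and the 4 intervals of *Tbx20*, *Tbx1*, *Hand2* and *Mef2c* lie inside the dashed lines at a 1.5-fold change.

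To set these factors beside the heart muscle RNA in each pool, 16 cardiomyocyte markers were examined. None passed the adjusted threshold. Of the 16, 13 had a log2 fold change below 0, and the median was -0.21. At an unadjusted p under 0.05, 5 were lower and 0 higher, against 3.47% and 2.55% of all genes tested. The markers with the smallest p were *Myh6*, the atrial myosin heavy chain, *Myh7*, the ventricular one, and *Popdc2*, a membrane protein of heart muscle. *Myh6* measured 61.1, 86.5 and 72.3 CPM in the WT libraries, and 48.9, 39.2 and 33.1 CPM in the 5C libraries, and its log2 fold change was -0.85 (edgeR p 3.5e-04 before and 0.781 after adjustment). It was called by DESeq2, with an adjusted p of 2.7e-05. The log2 fold changes of *Myh7* and *Popdc2* were -0.47 and -0.56. The 16 log2 fold changes ranged from -0.85 to 0.24, with *Tnnt2* at -0.18, so the sum of these markers combines unequal changes. The summed CPM of the 16 was 531, 751 and 590 in WT and 500, 481 and 550 in 5C. The lowest WT sum lay below the highest 5C sum, and the difference of -0.28 on the log2 scale had p = 0.200 in a two-sided exact permutation test, where 3 against 3 libraries cannot go below 0.10.

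**Figure D3:**
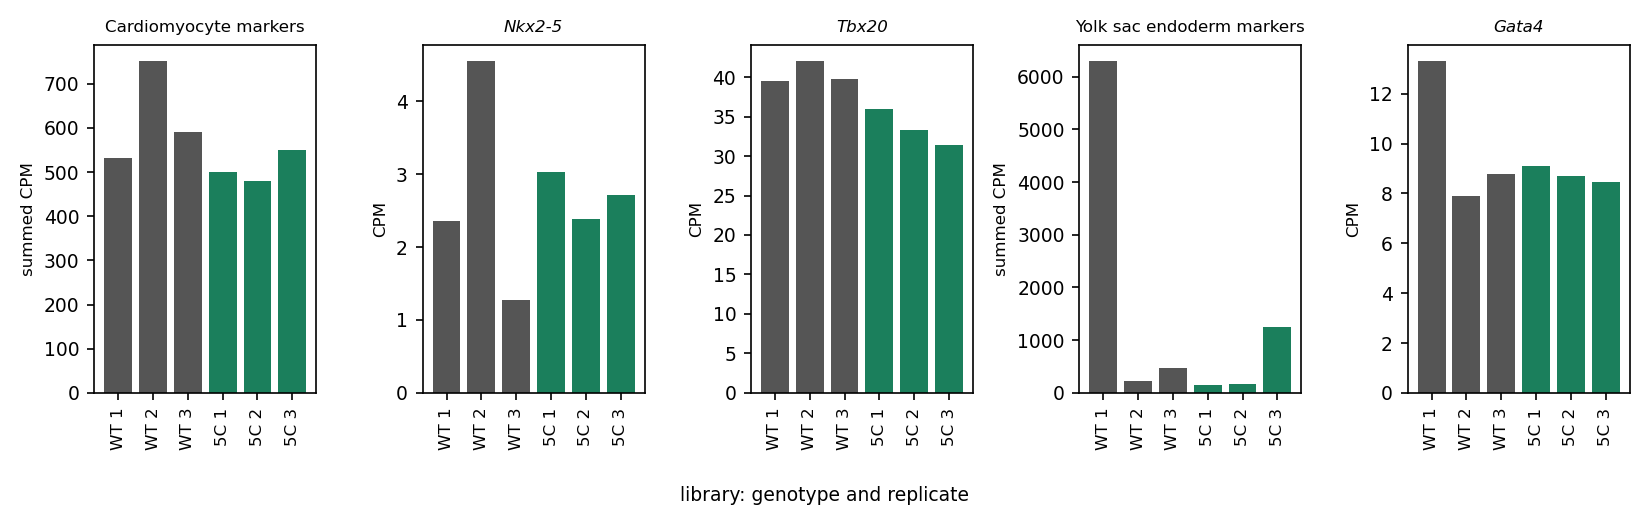
Summed CPM of 16 cardiomyocyte markers and of 12 yolk sac endoderm markers beside the CPM of *Nkx2-5*, *Tbx20* and *Gata4*, one bar for each library (grey WT, green 5C). WT replicate 2 is highest in cardiomyocyte markers and in *Nkx2-5*, and WT replicate 1 is highest in yolk sac markers and in *Gata4*. Among the 5C libraries, replicate 3 is highest in both marker sums but not in *Nkx2-5* or *Gata4*.

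Divided by the summed cardiomyocyte markers of the same library, *Tbx20* measured 74.2, 55.9 and 67.4 CPM per 1000 CPM of markers in WT and 71.8, 69.2 and 57.0 in 5C. The genotypes overlapped on this scale, and the log2 difference was 0.01 (exact permutation p = 1). It was -0.11 without WT replicate 2, -0.06 without 5C replicate 1 and -0.03 without 5C replicate 2. *Hand1* had a log2 difference of -0.18 and was the single factor below 0, with p = 0.600 in the same exact test, but it was 0.06 without WT replicate 1. *Mef2c* measured 95.2, 62.3 and 93.3 per 1000 in WT and 102, 113 and 100 in 5C. No 5C library lay below a WT library, which gave a log2 difference of 0.35 and an exact permutation p of 0.10, the smallest possible, or 0.800 adjusted over the 10. The log2 difference of *Mef2c* was 0.15 without WT replicate 2, and 0.21 with an exact permutation p of 0.800 when *Tnnt2* alone was the divisor. The other 7 differences lay between 0.01 and 0.45, with exact permutation p-values from 0.200 to 1. With *Tnnt2* alone as the divisor the differences of *Gata4*, *Gata6*, *Tbx20* and *Irx4* were also below 0, between -0.13 and -0.02, and that of *Hand1* was -0.32.

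**Figure D4:**
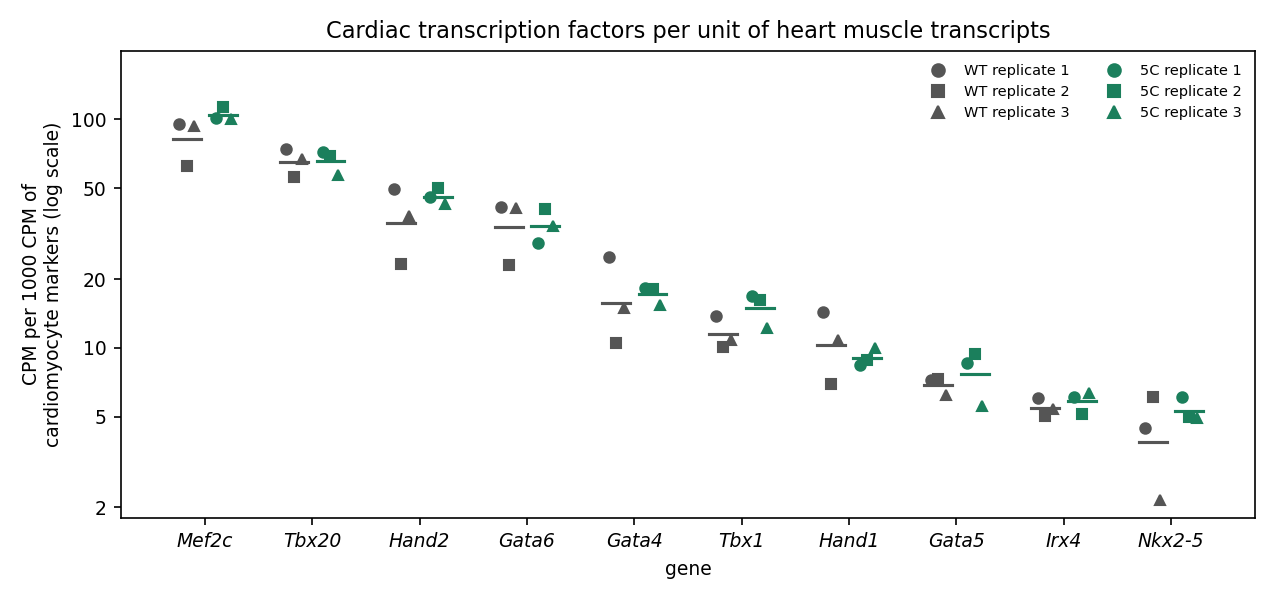
CPM of each cardiac transcription factor per 1000 CPM of summed cardiomyocyte markers in the same library (log scale). Bars are geometric means. *Mef2c* is the gene whose 5C points all lie above its WT points, and *Tbx20* overlaps on this scale.

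The wider network was read from 33 other cardiac regulators in 3 lists. None passed the adjusted threshold, 17 were below 0 and 16 above, and the median log2 fold change was -0.02. At an unadjusted p under 0.05, 2 were lower and 0 higher, against 3.47% and 2.55% of all genes tested. The 10 cofactors had a median of -0.10 with 7 below 0. *Tead1*, which encodes the DNA-binding partner of YAP, had the smallest p of this list and a log2 fold change of -0.25 (unadjusted p 0.0368, edgeR), *Smyd1*, a muscle methyltransferase gene, -0.35 and *Zfpm1*, a GATA cofactor gene, 0.27. The 13 T-box and chamber genes had a median of -0.03 with 0 at an unadjusted p under 0.05. *Hey1*, a Notch target of the atria, measured 37.0, 30.1 and 203 CPM in the WT libraries, and 41.8, 41.0 and 35.0 CPM in the 5C libraries, so WT replicate 3 stood apart, and the log2 fold change was -1.15. *Irx6* and *Tbx3* were at 0.55 and -0.15. Of the 10 second heart field genes, which mark the progenitors of the outflow tract, 8 were above 0 and the median was 0.10. *Crkl*, an adaptor gene, measured 99.0, 81.7 and 88.9 CPM in the WT libraries, and 70.2, 75.5 and 72.6 CPM in the 5C libraries. Its values did not overlap, with a log2 fold change of -0.31 and an unadjusted p of 0.00453 (edgeR). *Nkx2-6* was at -0.72 with counts of 9 to 35 per library, and *Isl1*, the second heart field homeodomain gene, at 0.14.

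Markers of other tissues that use the same factors were summed in each library. Pharyngeal arch markers, 8 genes, ranged from 307 to 333 CPM in WT and from 304 to 326 CPM in 5C. Endothelial markers, 6 genes, ranged from 327 to 343 CPM and from 315 to 342 CPM, skeletal muscle markers, 6 genes, from 26.3 to 33.2 CPM and from 27.4 to 31.5 CPM, and sympathetic markers, 5 genes, from 20 to 25.8 CPM and from 20.5 to 22.8 CPM. Liver and gut markers, 8 genes, ranged from 41.0 to 52.7 CPM and from 42.8 to 44.6 CPM. These sums overlapped between genotypes, and none of these 5 lists had a gene at an unadjusted p under 0.05. Limb bud markers, 7 genes, summed to 465 CPM in WT replicate 3 and to between 58.8 and 76.3 CPM in the other 5 libraries. Most of that sum was *Tbx4*, the hindlimb T-box gene, which measured 399 CPM in WT replicate 3 and 5.48 to 9.39 CPM elsewhere. The other limb bud markers measured 3.99 to 22.5 CPM in WT replicate 3. Among them *Pitx1* was at 22.5 CPM there and 15.9 to 24.1 CPM elsewhere, and *Hoxd13* at 10.1 CPM and 7.30 to 11.4 CPM. The 10 cardiac factors did not share the pattern of *Tbx4*, since their summed CPM was 171 in WT replicate 3 and 156 to 176 in all libraries.

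Across the 6 libraries the 10 factors did not vary as a block. Pearson correlations of log2 CPM over the 45 pairs had a median of -0.03 and ranged from -0.79 to 0.74, with 21 above 0, as a description of 6 libraries that share 2 genotypes. *Gata6* and *Hand1* were most alike at 0.74, and *Gata4* and *Hand2* at 0.70. Over all genes tested, the gene most like each factor had r between 0.987 and 0.997, which is the highest of all genes and a description with no test. These were *Cenpb* for *Nkx2-5*, *Cebpa* for *Gata4*, *Rnf19b* for *Gata5*, *Gm48904* for *Gata6*, *Cmtm4* for *Tbx20*, *Usf2* for *Tbx1*, *Vwa7* for *Hand1*, *Tubb4b* for *Hand2*, *Esr1* for *Mef2c* and *Rnls* for *Irx4*.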

How the data were processed

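Strand-specific poly(A) libraries were read single-end by the authors, who aligned reads with STAR to GRCm38 (Ensembl) and deposited raw counts per gene, whole numbers without normalization. Genotype and replicate number were taken from the sample titles. Annotation was GENCODE M21 (GRCm38), which held 55141 of 55401 identifiers.

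Counts were filtered with filterByExpr, scaled by TMM (trimmed mean of M values) and compared, 5C against WT, with the two-sided quasi-likelihood F-test (legacy form) of edgeR 4.0.16 in R 4.3.3, a choice that follows the study. P-values were adjusted by Benjamini-Hochberg over all genes tested. The standard error was the size of the log2 fold change divided by the square root of F. P-values printed as unadjusted are from this fit, unless an alternative or left-out libraries are named beside them. The script was checked on simulated counts. No 2 libraries agreed within sampling noise (chi-square per gene at least 5.26). P-values measure the spread between pools. GC content was that of the longest transcript.

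The 10 factors, the lists and the tests were chosen with earlier results of these data known. Genes named besides the 10 factors and *Mir483* were the at most 3 of each list with the smallest p, antisense genes within 5 kb, and the most alike gene. *Tnnt2* is named as an alternative divisor.

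Alternatives were relative log expression or library size scaling, other count filters, DESeq2 1.42.0, limma-voom 3.58.1, robust and newer edgeR forms, the replicate block, GC-content offsets, left-out libraries, and, added after the data were seen, WT replicate 1 and 5C replicate 3 left out together.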

Additional observations from a re-analysis of the deposited data

How the results depend on the processing

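The factors tested stayed at 0 calls under every alternative, with 9 of 10 tested where at least 10 counts were required in every library (*Nkx2-5* dropped out). Calls over all genes were 319 without a count filter (298 lower), 11 with DESeq2, 3 with robust moderation, 2 without WT replicate 1 and 5C replicate 3, and 0 to 1 when single libraries were left out. Without a count filter 1 other cardiac regulator (*Hey1*) and 1 cardiomyocyte marker (*Myh6*) were called, and *Myh6* was the 1 marker called by DESeq2.

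The median log2 fold change of the 10 was -0.09 with GC-content offsets, -0.07 with offsets and the replicate block, -0.06 without both libraries numbered 2, and -0.22 to -0.08 with single libraries left out. *Nkx2-5* reversed with limma-voom (0.07), the replicate block (0.06), the block with GC-content offsets (0.09) and without both libraries numbered 2 (0.55), where *Hand2* became -0.08 and *Irx4* 0.03. *Gata4* became 0.11 without WT replicate 1 and 5C replicate 3. With single libraries left out, log2 fold changes ranged from -0.32 to 0.46 for *Nkx2-5*, -0.37 to 0.08 for *Gata4*, -0.25 to 0.07 for *Gata5* and -0.07 to 0.25 for *Hand2*. Causes were not tested.

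Relative to cardiomyocyte markers, 1 factor was lower in 5C, 5 with *Tnnt2* alone (*Gata4* -0.02, *Gata6* -0.13, *Tbx20* -0.13, *Irx4* -0.05, *Hand1* -0.32) and 0 to 4 with single libraries left out, where values ranged from -0.17 to 0.46 for *Gata4*, -0.27 to 0.15 for *Gata6*, -0.11 to 0.11 for *Tbx20* and -0.46 to 0.06 for *Hand1*. Of the level order, 5 places changed with transcript length and 0 to 2 with single libraries left out. Equal replicate numbers did not pair the libraries, with correlations of deviations of -0.174, 0.202 and -0.166. WT replicate 1 with 5C replicate 3 gave 0.307, and WT replicate 3 with 5C replicate 1 gave 0.194. The other unequal numbers gave -0.199 to 0.00958. Whether the libraries pair under unequal numbers was not tested. The block of equal numbers changed no call and gave 782 genes at an unadjusted p under 0.05, against 1011. Depth limits *Nkx2-5* most, with 8 counts in WT replicate 3.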
